A study of Mus musculus with 16 samples.

Results

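Pattern recognition receptors are the proteins with which a host cell detects conserved parts of microbes. Toll-like receptors (TLRs) read bacterial lipoproteins, lipopolysaccharide and flagellin at the cell surface or nucleic acids inside endosomes, and signal through the adaptors MyD88 and TRIF, the latter encoded by Ticam1. NOD-like receptors sense peptidoglycan fragments, flagellin or cell stress in the cytosol, and some of them assemble inflammasomes, whereas peptidoglycan recognition proteins (PGLYRPs) bind the bacterial wall. In the colon these genes are used by epithelial cells and by immune cells of the mucosa.

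The genes were chosen by a rule on their names that used no measured value, though earlier results of these data were known. The rule took each gene whose name begins with Tlr and a digit, or with Nlrp, Nlrc, Nlrx, Naip or Pglyrp, and added Nod1, Nod2, Myd88, Ticam1, Cd14 and Ly96. This gave 52 receptor and adaptor genes of the 36711 genes tested, measured by 93 probes, and 41 of the 52 were also in the matrix of gene values that the authors deposited. Of the 52 genes, 51 names were found in the RefSeq gene table. All 52 were retained by the filter on dim probes and entered each comparison below, but only 35 were well above background on all 16 arrays, 9 were so on 1 to 15 arrays and 8 on 0 arrays.

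Colon RNA was taken at weaning from RjOrl:SWISS mice, an outbred stock, and hybridised on 1-colour Agilent arrays, 1 pup per array. The 8 pups of C-section delivery (CSD) were taken from the uterus by hysterectomy late in gestation and raised by foster mothers that had delivered vaginally, and the 8 pups of vaginal delivery (VD) were raised by mothers that had exchanged their litters. All pups were conventional animals, and no agent was given to them. The CSD pups were 4 females and 4 males from the litters of mothers 3 and 4, with 4 pups each, and the VD pups were 2 females and 6 males, of which mother 5 gave 5 pups and mother 6 gave 3 males. Delivery mode therefore varied only between litters, with 2 litters per mode, and a litter difference and a delivery difference cannot be told apart beyond that number. Between 58.7% and 64.87% of the spots of an array were well above background, and no spot was saturated. All 10 colon epithelium markers looked at were well above background on all 16 arrays, as were 5 of the 10 small intestine markers, whereas Lct, Sis, Apoa4 and Apoa1 of that list were so on 0 arrays. Values below are log2 intensities after quantile normalization, and probes differ in brightness, so that no order of RNA levels between genes can be read from them.

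The probes behind the results are shown here by their first 30 bases, 5′ to 3′, because several results rest on 1 probe and that of Nod2 depends on which of its probes is read. Positions are those of the array files (mm9).
Nlrp6, chr7:148113385-148113444, plus strand: atcaaagccagatctgtccatcatatattc
Nod2, probe above background, chr8:91212170-91212224, plus strand: agcctttctttctgagcaaggtctttctgt
Nod2, probe at background, chr8:91210529-91210588, plus strand: gcttcgagggaacacattctctttggagga
Tlr6, chr5:65344365-65344424, minus strand: ttatgaagttagccttagtcaatgaggatg
Pglyrp1, chr7:19475662-19475721, plus strand: atccaaagctgggaacactaccgagagtga
Tlr2, chr3:83640344-83640403, minus strand: ccttggatgaaggccagcaggaagtgtttt
Nlrp6, Tlr6, Pglyrp1 and Tlr2 are 4 of the 21 genes with a single probe. The files give positions and gene names but not the part of the transcript that a probe lies in.

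The first question was whether any receptor gene differed between CSD and VD pups. None of the 52 genes passed the test (limma, in a model of delivery mode and sex with mother as a random effect, Benjamini-Hochberg adjusted p under 0.05 over all genes), against 460 of the 36711 genes, or 1.25%. At an unadjusted p under 0.05 there were 6 of 52, or 11.5%, against 14.5% of all genes, of which 2 had higher and 4 lower values in CSD pups. The log2 fold change was above 0 for 26 genes and below 0 for 26, with a median of -0.0021 against 0.0029 over all genes tested. The size of the change, without its sign, had a median of 0.063, and of 0.051 over all genes. In the 35 genes well above background on all arrays the median size was 0.073, and in all 20601 genes of that kind it was 0.067. In no receptor gene did the values of the 2 groups stay apart in all pups, which 0.493% of all genes did.

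**Figure D1:**
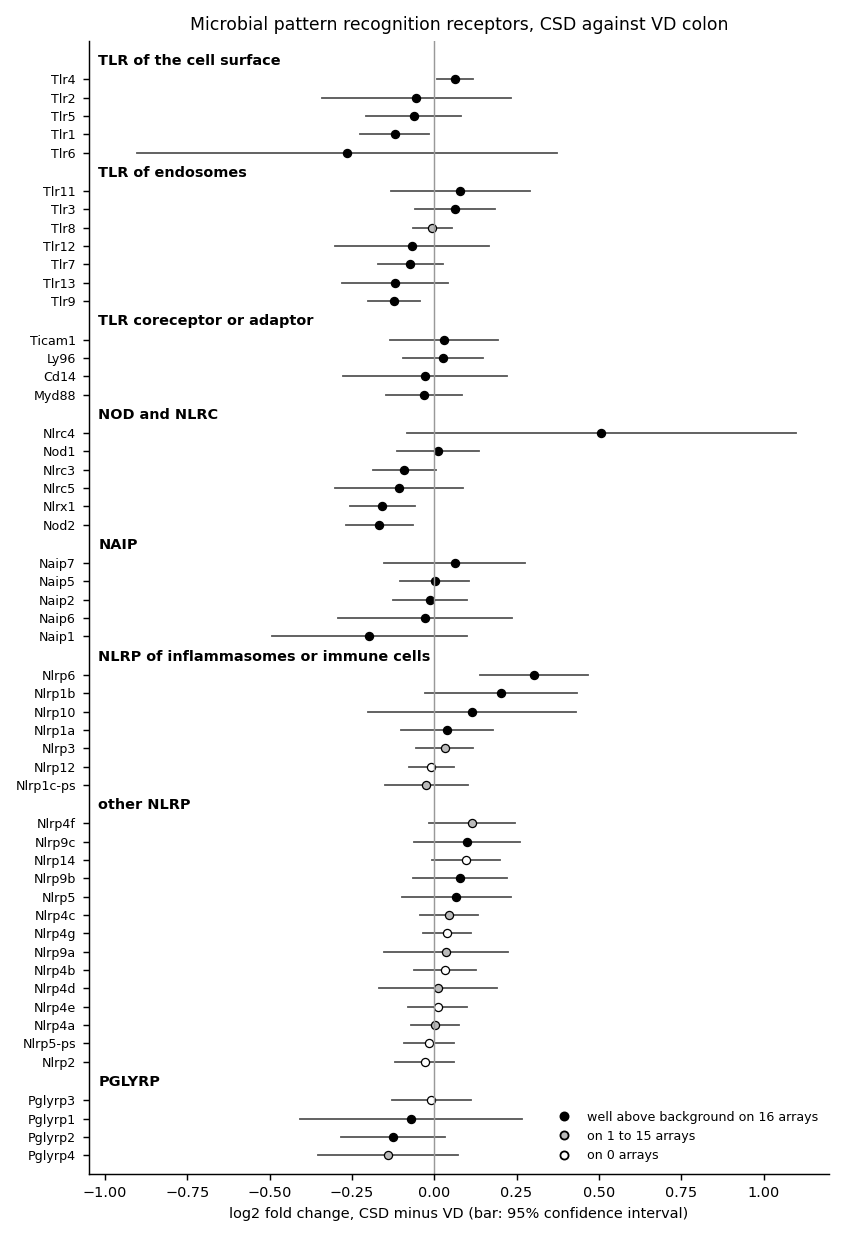
Log2 fold change of each of the 52 genes between CSD and VD pups (x axis, CSD minus VD) with its 95% confidence interval, grouped by role, where filled, grey and open points mark genes well above background on 16, 1 to 15 and 0 arrays. Most intervals cross 0, Nlrp6 lies highest among those that do not, and Tlr6 and Nlrc4 have the widest intervals. The intervals rest on the spread between pups and take little account of that between litters.

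Among the receptors of inflammasomes, Nlrp6, which in the gut is known from epithelial cells and goblet cells, had the smallest p of the 52 genes. Its values in CSD pups were 10.24, 10.26, 10.39 and 10.72 in the litter of mother 3 and 10.20, 10.22, 10.40 and 10.45 in the litter of mother 4. In VD pups they were 9.88, 10.02, 10.13, 10.15 and 10.25 in the litter of mother 5 and 9.92, 10.05 and 10.06 in the litter of mother 6. The groups overlapped, but 5 of the 8 CSD values exceeded all VD values, and both CSD litter means (10.40 and 10.32) lay above both VD litter means (10.09 and 10.01). The log2 fold change was 0.30 ± 0.08 (SE, n = 8 and 8, 95% confidence interval 0.14 to 0.47), with an adjusted p of 0.0678 from limma. The exact permutation test of the group means, which ignores litter and sex, gave p = 0.000622. At an adjusted p under 0.05 Nlrp6 passed under 2 of 36 alternatives. These were the slide of the arrays as a fixed effect (0.0459) and no sex in the model (0.0308). In limma on the litter means, 2 against 2, the adjusted p was 0.265, and with males only it was 0.313. It was 0.133 with the deposited matrix and 0.119 and 0.128 with scanner-corrected intensity, by normalization. The difference was 0.44 on slide 1 and 0.17 on slide 2. The 4 CSD arrays of slide 1 all had higher values than the 4 of slide 2, and the part of the slide in the difference was not tested further.

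The other inflammasome receptors had smaller differences or wider spread. Nlrp3, the receptor best known for activating caspase-1 in macrophages, was well above background on only 4 arrays of each group, with a difference of 0.03 ± 0.04 (SE). Nlrp1b, the mouse sensor of anthrax lethal factor, had a difference of 0.20 ± 0.11 with an adjusted p of 0.422. Its 2 probes above background differed between the groups by 0.47 and by 0.09, the widest gap between such probes among the 52 genes. The gene's difference was 0.48 with the brightest probe and -0.04 without the litter of mother 5. The difference was 0.11 ± 0.15 for Nlrp10 and 0.04 ± 0.07 for Nlrp1a, and Nlrp12 was not well above background on any array. One of the 3 Nlrp1a probes also carries an accession of the gene Gm5860, so that its value cannot be assigned to Nlrp1a alone. That probe was the only one of the 3 well above background on all 16 arrays, and it differed by -0.09. A second Nlrp1a probe and a probe of the pseudogene Nlrp1c-ps are alike at 52 of 57 aligned bases, and the stretch with most of the differences is shown here with the 4 differing bases in capitals.
Nlrp1a: gagacCcatcctcacctggtcatggaTAtA
Nlrp1c-ps: gagacTcatcctcacctggtcatggaCCtC
The values of these 2 genes are therefore uncertain.

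In the NOD and NLRC list, 2 of 6 genes had values above 0 and 4 below 0, with a median of -0.10. Nod2, the cytosolic sensor of muramyl dipeptide, had lower values in CSD pups. They were 6.56, 6.65, 6.81 and 6.85 in the litter of mother 3 and 6.58, 6.64, 6.71 and 6.81 in that of mother 4. VD pups had 6.83, 6.85, 6.96, 6.97 and 7.02 in the litter of mother 5 and 6.76, 6.86 and 6.90 in that of mother 6. The groups overlapped, with 5 of 8 CSD pups below every VD pup. The log2 fold change of the gene was -0.17 ± 0.05 (SE), with an adjusted p of 0.1005 (limma). In the deposited matrix of gene values it was -0.44, with an adjusted p of 0.0671. One of its 2 probes was well above background on all 16 arrays and the other on 0, and the gene value is their average. When each probe was tested on its own, a test added after the data were seen, the probe above background had a log2 fold change of -0.33 ± 0.07 with an adjusted p of 0.0321, and it was the 1 of 92 tested probes of the 52 genes that passed, against 980 of all 56366 probes, or 1.74%. With the litter of mother 5 left out the difference of the gene was -0.04, and with that of mother 6 left out it was -0.21, with an adjusted p of 0.0107.

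Nlrx1, a mitochondrial NOD-like receptor that dampens antiviral and NF-kB signalling, was -0.16 ± 0.05 in CSD against VD pups, with an adjusted p of 0.119. CSD pups ranged from 9.06 to 9.27 with a median of 9.18, and VD pups from 9.09 to 9.43 with a median of 9.34. VD pup 6 lay at 9.09 and the other 7 VD pups at 9.31 or above, so that all CSD pups lay below those 7. Without VD pup 6 the difference was -0.19 with an adjusted p of 0.0305, and without the litter of mother 5 it was -0.07. Nlrc3 was -0.09 ± 0.05 and Nlrc5, the activator of MHC class I genes, -0.11 ± 0.09. The brightest Nlrc3 probe differed by 0.002 and the dimmer ones by -0.08 and -0.22. Nod1, which reads a peptide of the Gram-negative wall, differed by 0.01 ± 0.06.

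Nlrc4, which together with NAIP proteins forms the inflammasome that responds to flagellin and secretion systems, had the largest difference of the 52 genes and also a wide spread. CSD pups ranged from 8.26 to 9.92 with a median of 9.80, and VD pups from 8.26 to 9.72 with a median of 9.21. The log2 fold change was 0.51 ± 0.28 (SE), with an adjusted p of 0.432 (limma) and an exact permutation p of 0.126. Without CSD pup 9, at 8.26, it was 0.79 with an adjusted p of 0.0810, and without the litter of mother 5 it was -0.23. Of the VD pups, the 3 of mother 6 lay at 9.58, 9.71 and 9.72 and the 5 of mother 5 between 8.26 and 9.25. The standard deviation of Nlrc4 over the 16 pups was 0.60, higher than in 98.4% of all genes.

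The 5 Naip genes, several of whose products bind flagellin or parts of bacterial secretion systems, lie close together on chromosome 13. Their differences between delivery modes were -0.20 ± 0.14 for Naip1, -0.03 ± 0.12 for Naip6, -0.01 ± 0.05 for Naip2, 0.00 ± 0.05 for Naip5 and 0.06 ± 0.10 for Naip7, and none had an unadjusted p under 0.05. With the litter of mother 6 left out Naip1 was -0.38 (adjusted p = 0.0347), and with mother 5's pups left out it was 0.24. Its 2 probes tested on their own gave -0.30 and -0.09, neither of which passed. The Naip genes are related copies, and 1 of the 2 Naip5 probes also carries accessions of Naip1 and Naip6, so that its value cannot be assigned to Naip5 alone. How far the other Naip probes separate the copies was not tested.

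The 5 TLRs of the cell surface had a median difference of -0.06, with 1 above 0 and 4 below. Among them, Tlr4, the receptor of lipopolysaccharide, had a small difference with little spread. CSD pups ranged from 8.66 to 8.77 and VD pups from 8.63 to 8.73, and CSD pup 9, at 8.66, was the only CSD pup within the VD range. The log2 fold change was 0.06 ± 0.03 (SE, 95% confidence interval 0.01 to 0.12), with an adjusted p of 0.260 in limma and an exact permutation p of 0.0028. Its 3 probes differed by 0.14, 0.04 and 0.03, and the second of them was not well above background on any array. The gene's difference was 0.15 with scanner-corrected intensity under either normalization and 0.03 with the brightest probe alone, and it passed under none of these. Tlr1, which pairs with Tlr2 to bind triacylated lipoproteins, had a difference of -0.12 ± 0.05, with an adjusted p of 0.260. CSD pups ranged from 10.80 to 11.22 and VD pups from 11.17 to 11.29, with 6 of 8 CSD pups below every VD pup. Tlr5, the flagellin receptor, was -0.06 ± 0.07, but its 2 probes, both well above background on all arrays, differed by -0.15 and 0.02. Tlr2 was -0.06 ± 0.14 and Tlr6, its partner for diacylated lipoproteins, -0.26 ± 0.30. Both turned sign with the litters used, Tlr2 to 0.36 without the litter of mother 5 and Tlr6 to 0.43 without that of mother 4.

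The 7 endosomal TLRs had a median difference of -0.07, with 2 above 0 and 5 below. Among them, Tlr9, the receptor of unmethylated CpG DNA, was -0.12 ± 0.04 in CSD against VD pups, with an adjusted p of 0.124 (limma). CSD pups had 10.59, 10.59, 10.62 and 10.63 in the litter of mother 3 and 10.50, 10.52, 10.61 and 10.67 in that of mother 4. VD pups had 10.62, 10.71, 10.76, 10.77 and 10.79 in the litter of mother 5 and 10.63, 10.66 and 10.77 in that of mother 6. The groups overlapped, and 5 of 8 CSD pups lay below every VD pup. Tlr7, a receptor of single-stranded RNA, was -0.07 ± 0.05 and Tlr13, which reads bacterial ribosomal RNA, -0.12 ± 0.08. Tlr3, the receptor of double-stranded RNA, was 0.06 ± 0.06, but its 2 probes pointed in opposite directions, at 0.24 and -0.06. Tlr8 was well above background on 4 CSD and 6 VD arrays.

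**Figure D2:**
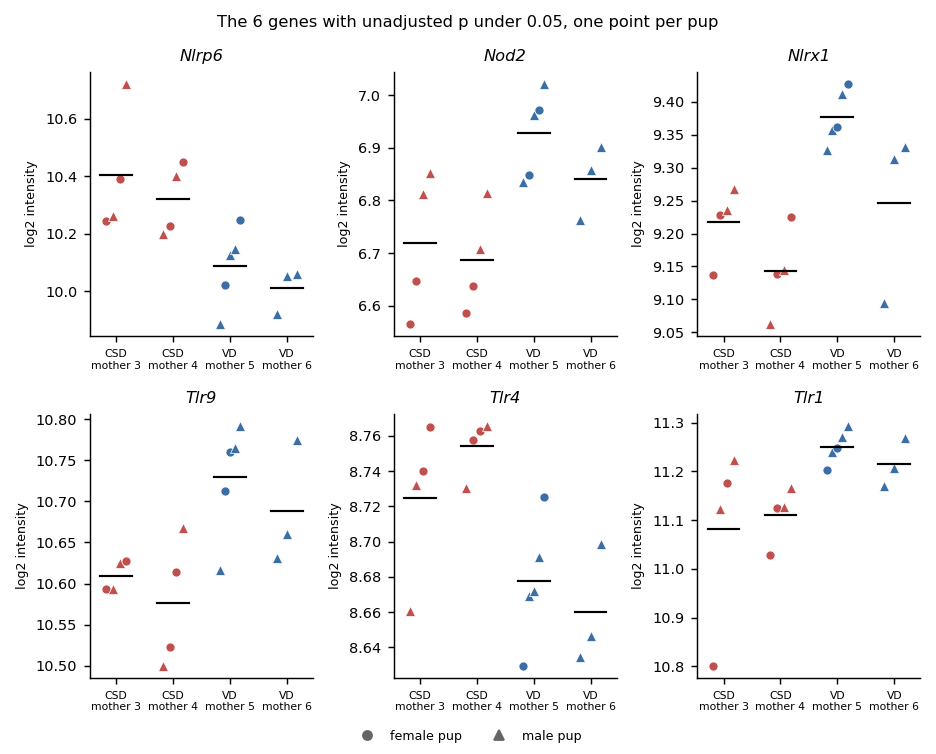
Log2 intensity (y axis) of the 6 genes with an unadjusted p under 0.05 between delivery modes, 1 point per pup, by litter, with circles for females, triangles for males and a bar for the litter mean. Nlrp6 and Tlr4 lie higher and Nod2, Nlrx1, Tlr9 and Tlr1 lower in the CSD litters, with overlap between pups in each panel.

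The 4 coreceptors and adaptors had the smallest median difference of the role lists, -0.0011. Cd14, which hands lipopolysaccharide to Tlr4, was -0.03 ± 0.12, with CSD pups from 12.82 to 13.44 and VD pups from 12.71 to 13.47, and it was 0.30 without the litter of mother 5. Ly96, which encodes the MD-2 subunit of that receptor, was 0.03 ± 0.06, Myd88 -0.03 ± 0.05 and Ticam1 0.03 ± 0.08. The 95% confidence intervals of these differences were -0.28 to 0.22 for Cd14, -0.09 to 0.15 for Ly96, -0.15 to 0.08 for Myd88 and -0.13 to 0.19 for Ticam1. Such intervals rest on the spread between pups and take little account of that between litters. The 0.30 of Cd14 without the litter of mother 5 lies outside its interval. All 4 PGLYRPs had values below 0, with a median of -0.10, and none had an unadjusted p under 0.05. Pglyrp1, a bactericidal protein of neutrophil granules and epithelium, was -0.07 ± 0.16, and 0.31 without the litter of mother 3. Pglyrp2, an amidase of peptidoglycan, was -0.12 ± 0.07, and between -0.37 and -0.04 over the alternatives, under none of which it passed. Its probe above background on 8 CSD and 8 VD arrays differed by -0.39. The other probes, above background on few arrays, differed by -0.04 and -0.05. Pglyrp4 was above background in 1 VD pup only, and Pglyrp3 on 0 arrays. Of the other 14 Nlrp genes, most of which are known from oocytes and early embryos, 12 had values above 0 and 2 below 0, and none had an unadjusted p under 0.05. Over all genes, 18986 of 36711 had values above 0. Only Nlrp5, Nlrp9b and Nlrp9c of the 14 were well above background on all 16 arrays, so most of these signs come from dim signal. Of the 14, Nlrp14 was 0.10 ± 0.05 and Nlrp4f 0.11 ± 0.06, and neither was well above background on more than 1 array. Nlrp9c was 0.10 ± 0.08, with differences of 0.29 and 0.01 in its 2 probes above background, and 0.01 without CSD pup 7.

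Genes that act around these receptors were read from the same fit, in 7 lists of accessory proteins, signalling kinases, NF-kB factors, inhibitors, NOD partners, inflammasome partners and other sensors. Of the 89 genes, 0 passed the test in either direction, against 1.25% of all genes, and 7 had higher and 9 had lower values in CSD pups at an unadjusted p under 0.05, where all genes had 2706 higher and 2601 lower of 36711, or 14.5% together. Their median log2 fold change was -0.01. The smallest p belonged to Xiap, a ubiquitin ligase needed for NOD2 signalling, at 0.19 ± 0.06 (adjusted p = 0.128), to Il1rl1, the receptor of IL-33, at 0.18 ± 0.06 (adjusted p = 0.139), and to Tmem173, which encodes the DNA-sensing adaptor STING, at -0.30 ± 0.09 (adjusted p = 0.140). In the NF-kB list, 11 of 13 genes had values below 0 and 3 of them, Nfkb2, Nfkbie and Rel, an unadjusted p under 0.05, with values of -0.23, -0.46 and -0.15. Over all genes, 17725 of 36711 had values below 0. Those 3 genes were named after their values were seen. The list of NOD partners went the other way, with 8 of 11 genes above 0 and 3 below 0. Of these, 3 had higher and 1 had lower values at an unadjusted p under 0.05, and the median was 0.03.

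**Figure D3:**
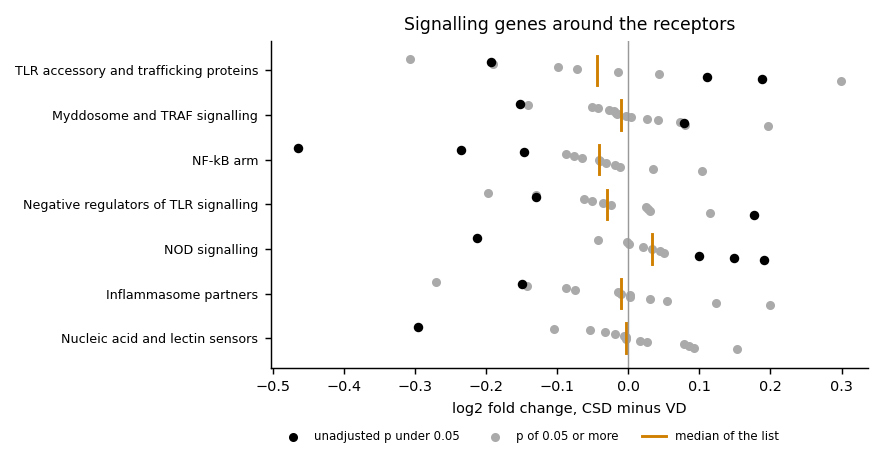
Log2 fold change between CSD and VD pups (x axis) of the 89 genes around the receptors, by list, with black points for an unadjusted p under 0.05 and an orange bar for the median of the list. All 7 medians lie close to 0, and Nfkbie, at -0.46, is the lowest point.

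RNA of the whole colon wall was measured, so that fewer cells of a type and less RNA per cell cannot be told apart. Intensities of cell type markers were therefore summed per pup, and each sum weighs most on the gene with the brightest signal, which need not be the most abundant RNA. The exact permutation tests of these sums ignored litter and sex and took pups as independent, though delivery mode varied only between litters. Their p-values therefore do not measure the spread between litters. The 11 macrophage markers, with the brightest signal on Lyz2, summed to 13.76 ± 0.28 in CSD and 14.07 ± 0.12 in VD pups on the log2 scale (SD, n = 8 each, exact permutation p = 0.0113). The 5 plasma cell markers (brightest signal on Jchain) gave 14.57 ± 0.72 and 15.39 ± 0.44 (exact permutation p = 0.0157). The 7 T cell markers (Cd2) gave 11.20 ± 0.36 and 11.73 ± 0.49 (p = 0.0222 in the exact test), and the 7 B cell markers (Cd79b) 11.75 ± 0.80 and 12.38 ± 0.49 (p = 0.0769 in the exact test). The 7 dendritic cell markers, with the brightest signal on Siglech and Xcr1 well above background on 0 arrays, gave 10.61 ± 0.05 and 10.68 ± 0.06 (p = 0.0218 in the exact test). The 9 neutrophil markers, with the brightest signal on Ly6g and Ngp on 0 arrays, gave 12.58 ± 0.26 and 12.57 ± 0.14 (p = 0.944 in the exact test). No marker of these lists passed the test across all genes, and the median log2 fold change of single markers was -0.20 for macrophages, -0.48 for B cells, -0.57 for plasma cells and -0.35 for T cells. The sums of macrophage, dendritic cell, plasma cell and T cell markers had lower values in CSD pups, as Nod2, Nlrx1, Tlr9 and Tlr1 had, and their part in those differences was not tested. Lower litter means in both CSD litters than in both VD litters were also found for the 7 endothelium and stroma markers, at 16.12 ± 0.21 in CSD and 16.29 ± 0.11 in VD pups (exact permutation p = 0.0615, brightest signal on Dcn), and for the 6 smooth muscle markers, at 17.83 ± 0.21 and 17.98 ± 0.18 (exact permutation p = 0.135, brightest signal on Tagln). The 10 small intestine markers had this order of litter means too, at 14.08 ± 0.16 and 14.20 ± 0.19 (exact permutation p = 0.193, brightest signal on Lyz1). The 10 colon epithelium markers summed to 18.93 ± 0.16 in CSD and 18.90 ± 0.12 in VD pups (exact permutation p = 0.656), with the brightest signal on Krt8. Taken singly, 9 of the 10 had values above 0, 2 of them at an unadjusted p under 0.05, with a median log2 fold change of 0.18. Nlrp6 had the same direction, and the part of these markers in its difference was not tested.

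**Figure D4:**
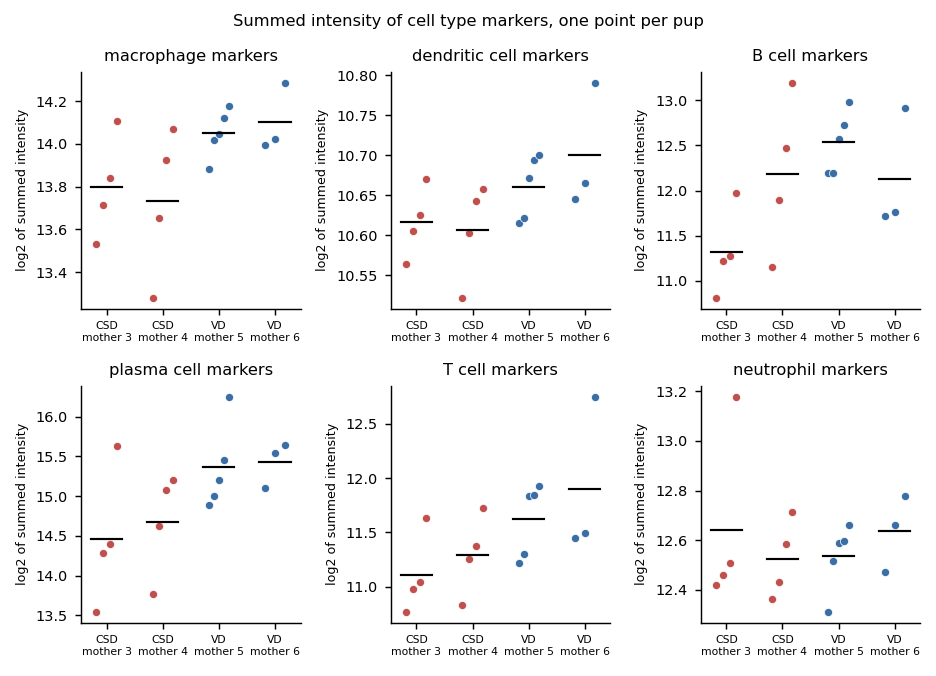
Log2 of the summed intensity of the markers of 6 cell types (y axis), 1 point per pup, by litter, with a bar for the litter mean. Macrophage, dendritic cell, plasma cell and T cell markers have lower litter means in both CSD litters than in both VD litters, and pups overlap in every panel.

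The second question was how far the genes vary between litters of the same delivery mode, which is the background of the first comparison. Between the CSD litters of mothers 3 and 4, 2 of the 52 genes passed the test (limma with mother and sex as fixed effects), against 32 of all genes, or 0.0872%, and 5 of 52 had an unadjusted p under 0.05, against 7.68%. Tlr6 was measured at 8.71, 8.85, 8.90 and 8.94 in the pups of mother 3 and at 7.36, 7.51, 7.52 and 7.65 in those of mother 4. The litters did not overlap and differed by 1.34 ± 0.16 (SE, adjusted p = 0.00198). With males only, 2 per litter, the difference was 1.41 with an adjusted p of 0.193. In the VD litters Tlr6 lay between 7.64 and 8.64 in the pups of mother 5 and between 8.75 and 9.12 in those of mother 6, a difference of -0.73 ± 0.17 with an adjusted p of 0.0645. Its standard deviation over the 16 pups was 0.62, higher than in 98.5% of all genes. Tlr1, which lies next to Tlr6 on chromosome 5, differed by -0.03 ± 0.07 between the CSD litters and by 0.07 ± 0.07 between the VD litters. The neighbour on the other side, Fam114a1, named after the values were seen, differed by -0.20 (adjusted p = 0.542) and 0.21 (adjusted p = 0.345).

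Pglyrp1 was lower in every pup of mother 3, at 13.02, 13.36, 13.39 and 13.42, than in the pups of mother 4, at 13.92, 14.01, 14.07 and 14.10. The difference was -0.73 ± 0.11 with an adjusted p of 0.0246. The VD pups ranged from 13.46 to 14.03. The neutrophil markers had litter means of 12.64 for mother 3 and 12.52 for mother 4. CSD pup 8 of mother 3 lay at 13.18 and its litter mates at 12.42, 12.46 and 12.51. The pups of mother 4 lay between 12.36 and 12.72, so the higher mean of mother 3 rests on that 1 pup. Without CSD pup 1, 2, 6 or 9 the adjusted p of Pglyrp1 was 0.0776, 0.0788, 0.0996 and 0.0557. It was 0.103 with males only and 0.0974 with scanner-corrected intensity minus the 75th percentile. Ly96 also separated the pups of the CSD litters, with litter means of 10.44 and 10.63, but did not pass the test (adjusted p = 0.368). Values of the 2 litters stayed apart in 3 of 52 genes, Tlr6, Pglyrp1 and Ly96, against 4.06% of all genes.

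Between the VD litters of mothers 5 and 6, 1 of 52 genes passed the test, against 321 of all genes, or 0.874%, and 10 of 52 had an unadjusted p under 0.05, against 11.5%, of which 7 had higher values in the pups of mother 5 and 3 lower. The gene that passed was Tlr2, at 10.09, 10.22, 10.26, 10.28 and 10.42 in the pups of mother 5 and 9.38, 9.89 and 9.91 in those of mother 6. Its difference was 0.60 ± 0.13 with an adjusted p of 0.0436, and VD pup 7, at 9.38, lay apart from its litter. The adjusted p was above 0.05 when any 1 of the 8 VD pups was left out (0.0609 without VD pup 5 to 0.130 without VD pup 7, where the difference was 0.43), and also without CSD pup 1, 3, 6, 7 or 9 (0.0506 to 0.0622). It was also above 0.05 with a normexp offset of 16 (0.0593), with scanner-corrected intensity (0.0757 and 0.0852 by normalization), with the deposited matrix (0.0506) and with males only (0.141). Naip1 differed by 0.57 ± 0.13 (adjusted p = 0.0645), Naip6 by 0.48 ± 0.12 (adjusted p = 0.1001), Cd14 by 0.43 ± 0.13 (adjusted p = 0.158) and Myd88 by 0.21 ± 0.06 (adjusted p = 0.167), each with the higher mean in the pups of mother 5, and none of these passed. Under alternatives, Naip6 passed without VD pup 11 or CSD pup 3, and Tlr6 without VD pup 11. Naip1 and Tlr6 passed with probes well above background on at least 8 arrays. Of the 2 Naip1 probes, 1 differed by 1.03 and passed when probes were tested on their own (adjusted p = 0.026, a call made for 0.915% of all probes), and the other differed by 0.10. Naip7 differed by 0.16, Naip5 by 0.08 and Naip2 by -0.14. Nlrc4 had the opposite sign, at -0.88 ± 0.32 with an adjusted p of 0.262. Values of the 2 litters stayed apart in 7 of 52 genes, against 8.12% of all genes, and these were Tlr2, Tlr6, Naip1, Naip6, Nlrc4, Nlrp4c and Myd88. Il18, a cytokine released by inflammasomes and a gene of the inflammasome list, also passed between the VD litters, with means of 14.42 and 13.95, a difference of 0.48 ± 0.09 and an adjusted p of 0.0333. Il18 did not pass with a normexp offset of 16, with either setting on scanner-corrected intensity, or without VD pup 6, 7, 8, 9, 10 or 11.

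**Figure D5:**
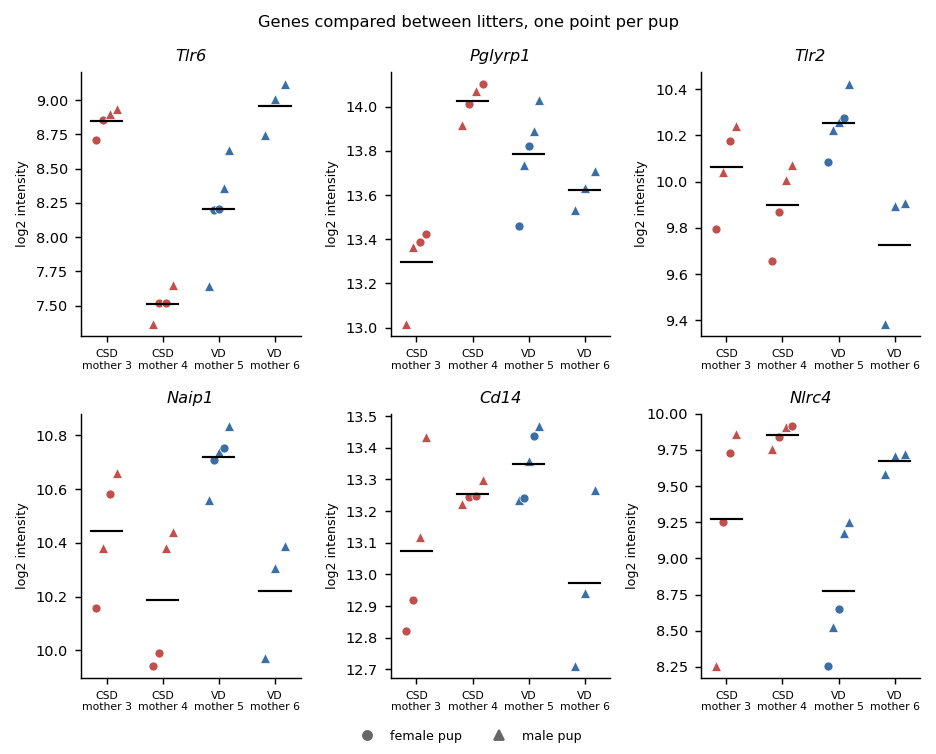
Log2 intensity (y axis) of 6 genes by litter, 1 point per pup, with circles for females, triangles for males and a bar for the litter mean. Tlr6 and Pglyrp1 separate the CSD litters, and Tlr6, Tlr2, Naip1 and Nlrc4 separate the VD litters, whereas Cd14 overlaps between all litters.

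The third question concerned sex. Between females and males, 0 of the 52 genes passed the test in limma, against 22 of all genes, or 0.0599%, and 4 of 52 had an unadjusted p under 0.05, against 6.45%. The smallest p belonged to Nlrp10, with a difference of 0.59 ± 0.15 between females and males (adjusted p = 0.382). The females of each CSD litter had Nlrp10 at 7.86 and 8.51 and at 7.86 and 8.53, the males at 7.10 and 7.87 and at 7.13 and 7.86. In each of these 4 pairs the lower value came from slide 1 and the higher from slide 2, and the part of the slide was not tested. In VD pups the 2 females lay at 7.83 and 7.99 and the 6 males between 7.29 and 7.66, with no such order of slides in the females. For the interaction of delivery mode and sex, 0 of 52 genes passed, against 1 of 36709 genes, or 0.00272%, and 5 of 52 had an unadjusted p under 0.05, against 4.72%. The smallest p was that of Pglyrp4 (0.00771, adjusted p = 0.981), a gene above background on 1 array. All VD females came from 1 litter.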

How the data were processed

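Colon RNA of 16 pups was measured, and groups, mothers and sexes came from the labels. The authors deposited the scanner's intensity per spot (mean, background and corrected signal, with quality marks, Feature Extraction 12.0.3.2) and a matrix of log2 values for 27036 genes, made in limma 3.38 per the labels. Here normexp (offset 50) was applied to all spots with limma 3.58.1 in R 4.3.3, control and outlier spots were left out, log2 values were quantile normalized, probes above the 5% quantile of their array on 4 or more arrays were retained (56366 of 56605), and values were averaged by gene name. Averaging lets a probe at background shrink a difference. Fits used lmFit and eBayes over all genes. The consensus correlation of litters was 0.0152. The SEs, intervals and p-values of the delivery comparison therefore treat pups as nearly independent, though delivery mode varied only between litters. Exact permutation tests were two-sided over 12870 assignments of pups, without regard to litter or sex, with a smallest possible p of 0.000155. The code was tested on simulated data of 36493 genes, with independent noise per pup and no spread between litters apart from planted differences. That test cannot show how the delivery comparison fares when litters differ.

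The receptor genes, lists and tests were chosen with earlier results of these data known. Named genes were the 2 with the smallest p per role list, 16 well known genes, the 3 genes with the smallest p among those that passed each other comparison, the 3 genes whose probes differed most, and the 3 smallest p of the pathway lists. Other genes of a list were named to account for it. Neighbours of Tlr6 came from the GRCm38.p6 gene table, and probe positions are mm9. Alternatives covered background correction, normalization, filters, probe choice, the deposited matrix, the model, slides and left-out pups or litters. The number of arrays limits the precision. The 5 numbers shared by CSD and VD titles do not mark pairs.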

Additional observations from a re-analysis of the deposited data

Results flagged for a closer look

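In 56 groups of 8 values looked at, 7 held a sample far from the others by Dixon's ratio (the gap to the nearest value over the whole range, at the 95% level), where chance gives about 1 in 20. Nlrc4 in CSD pup 9 was the lowest, at 8.26 against 9.25 for the next pup, with a ratio of 0.599. Tlr4 in the same pup was the lowest of its group, at 8.66 against 8.73, with a ratio of 0.665. Tlr1 in CSD pup 5 was the lowest, at 10.80 against 11.03, with a ratio of 0.537. Nlrx1 in VD pup 6 was the lowest, at 9.09 against 9.31, with a ratio of 0.658. Nlrp9c in CSD pup 7 was the highest, at 7.13 against 6.75, with a ratio of 0.617. Pglyrp4 in VD pup 5 was the highest, at 6.79 against 6.10, with a ratio of 0.71, and this is the only array on which that gene was well above background. The array of VD pup 11 had 58.7% of its spots well above background, against 63.76% for the next VD array, with a ratio of 0.82.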

How the results depend on the processing

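The count of receptor genes that passed between CSD and VD pups stayed at 0 under 30 of 38 alternatives. It was 1 with the brightest probe per gene (Nod2, -0.33, adjusted p = 0.041, with 506 of 36711 genes called), 1 with slide as a fixed effect (Nlrp6, adjusted p = 0.0459, with 474 genes), 1 at an adjusted p under 0.1 (Nlrp6, with 1126 genes) and 1 with each probe tested on its own (Nod2, chosen after seeing the data). It was 2 with no sex in the model (Nlrp6, adjusted p = 0.0308, and Nod2, adjusted p = 0.0464, with 992 genes) and 5 without the litter of mother 6 (Naip1, Nlrp1b, Nlrx1, Nod2 and Tlr9), and with each pup left out it ranged from 0 to 1 (Nod2 without VD pup 8, Nlrx1 without VD pup 6). Over these alternatives the count of all genes that passed ran from 0 (litter means, males only, slide 2 only, replicate block) to 2265 (without the litter of mother 6), against 460. Of the pathway genes, 1 passed with the brightest probe per gene (Xiap) and 0 under the other 7 alternatives planned for them. Without the litter of mother 5, Il18 passed, and without that of mother 6, Il1b, Il1rl1, Nfkb2, Rel, Slc15a3, Tmem173, Xiap and Zc3h12a. Between the CSD litters the count was 1 with scanner-corrected intensity minus the 75th percentile (31 of all genes called, against 32) and 0 with males only (45 genes), and with each pup left out 1 to 2 (23 to 44 genes). Between the VD litters it was 0 with an offset of 16 (218 of all genes called, against 321), with scanner-corrected intensity quantile normalized (150) or minus the 75th percentile (109), with the deposited matrix (271) and with males only (204), 3 with probes well above background on at least 8 arrays (Naip1, Tlr2 and Tlr6, of 37 receptor genes tested, with 467 of 22889 genes called), and 0 to 2 with each pup left out (77 to 370 genes). Between the VD litters, Naip6 and Tlr6 passed without VD pup 11, and without CSD pup 3 Naip6 passed and Tlr2 did not. The left-out pups, slide and males-only settings of the litter comparisons were also chosen after seeing the data. With males only the differences were 1.41 for Tlr6, -0.80 for Pglyrp1 and 0.57 for Tlr2. The causes were not tested. Under the replicate block, the number in the titles as a fixed effect (sex is the same within each of the 5 shared numbers, so it was left out and the setting was added after seeing the data), 0 receptor genes passed, and Nlrp6 was 0.33 with an adjusted p of 0.305. The shared numbers had correlations of deviations of -0.0492 to 0.215. Over 27 named genes, 920 of 966 values under alternatives moved by less than the spread between pups, 35 moved by more and 11 passed the test. No value that passed changed sign, but others did, among them Nlrc4 (0.51 to -0.23), Naip1 (-0.20 to 0.24), Nlrp1b (0.20 to -0.04) and Cd14 (-0.03 to 0.30) without the litter of mother 5 and Tlr6 (-0.26 to 0.43) without that of mother 4.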
